A study of Mus musculus with 7 samples.

Results

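Core circadian clock genes were followed in the nucleus pulposus, the soft core of the spinal disc, of mice with and without the lactate exporter MCT4. The set was named gene by gene without a cutoff on measured values, but earlier results of these data were known. It held the activators Arntl (also called Bmal1), Clock and Npas2 and the repressors Per1, Per2, Per3 and Cry1. The nuclear receptors Nr1d1 and Nr1d2 and the output factor Dbp completed it. All 10 genes were found among 19505 named genes on the array, each with 1 feature, the array's unit for a transcript. The 4 wild-type animals (WT) were 13 months old and the 3 animals with a global deletion of Slc16a3, the gene of MCT4 (MCT4KO), were 14 months old, so age and genotype cannot be told apart. Per the labels, both groups were littermates bred from heterozygous parents after 10 generations of backcrossing to C57Bl/6N, while the series' design text calls the MCT4KO animals C57Bl/6N and the WT animals C57Bl/6. All animals were kept under 12 h of light and 12 h of dark with free access to food. Tissue of lumbar and caudal discs was pooled within 1 animal, so each of the 7 arrays is a separate animal. The sources used here give neither the hour of dissection nor the sex of the animals.

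The clock is a feedback loop of transcription. A dimer of BMAL1 with CLOCK, or with its relative NPAS2, binds E-box sequences and turns on the Per and Cry genes, whose proteins return to block the dimer. The same dimer turns on Nr1d1 and Nr1d2, whose products REV-ERB alpha and beta repress Arntl, Npas2 and Cry1 through ROR response elements (ROREs). It also turns on Dbp, a factor that binds D-boxes in promoters such as those of the Per genes. In most tissues the transcripts of Dbp and Nr1d1 therefore peak when those of Arntl and Npas2 are low. Disc cells carry such a clock, which responds to daily loading.

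The labels were checked on the targeted gene and on tissue markers. Slc16a3 had log2 values of 13.55, 13.35, 13.61 and 13.40 (WT 1 to 4) against 5.02, 4.98 and 4.47 (MCT4KO 1 to 3), below the negative-control median of every knockout array (log2 change -8.65 ± 0.165 SE; limma adjusted p = 6.7e-09; exact two-sided permutation p = 0.0286, the smallest that 4 against 3 animals allow). Of 9 measured nucleus pulposus markers, 8 read above the negative-control median on all 7 arrays, and the mean of all 9 lay between 13.38 and 13.69 for WT and between 13.60 and 13.71 for MCT4KO. Array medians over all genes ran from 6.46 to 6.51. The Y-linked gene Uty read 3.26 in WT 1 and 3.56 in MCT4KO 3, against 10.39 to 10.94 in the other 5 animals, so each group held 1 animal without signal from the Y chromosome. RNA was measured in whole tissue, where fewer cells of a type and less RNA per cell cannot be told apart. Values below are log2 expression on the deposited scale, and a change is MCT4KO minus WT with its standard error (SE).

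The REV-ERB genes, Npas2, Dbp, Clock, Per1 and Per3 read lower in MCT4KO on average, and Arntl, Cry1 and Per2 read higher. No clock gene passed the test over all genes. At a limma adjusted p under 0.05, 0 of 10 clock genes were called, as against 0.59% of all 19505 genes. At an unadjusted p under 0.05, 4 of the 10 were lower (Nr1d1, Npas2, Nr1d2 and Dbp) and 0 were higher, where 6.9% of all genes were lower and 5.76% higher. The values of the 2 groups did not overlap for 3 of the 10, all lower in MCT4KO (Nr1d1, Npas2 and Nr1d2), as for 6.37% of all genes in that direction and 5.66% in the other. Of the 10 changes 7 were below 0 and 3 above, with a median of -0.24, beside a median of 0.02 over all genes. That median takes genes with changes of opposite sign together and hides their separate directions.

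**Figure D1:**
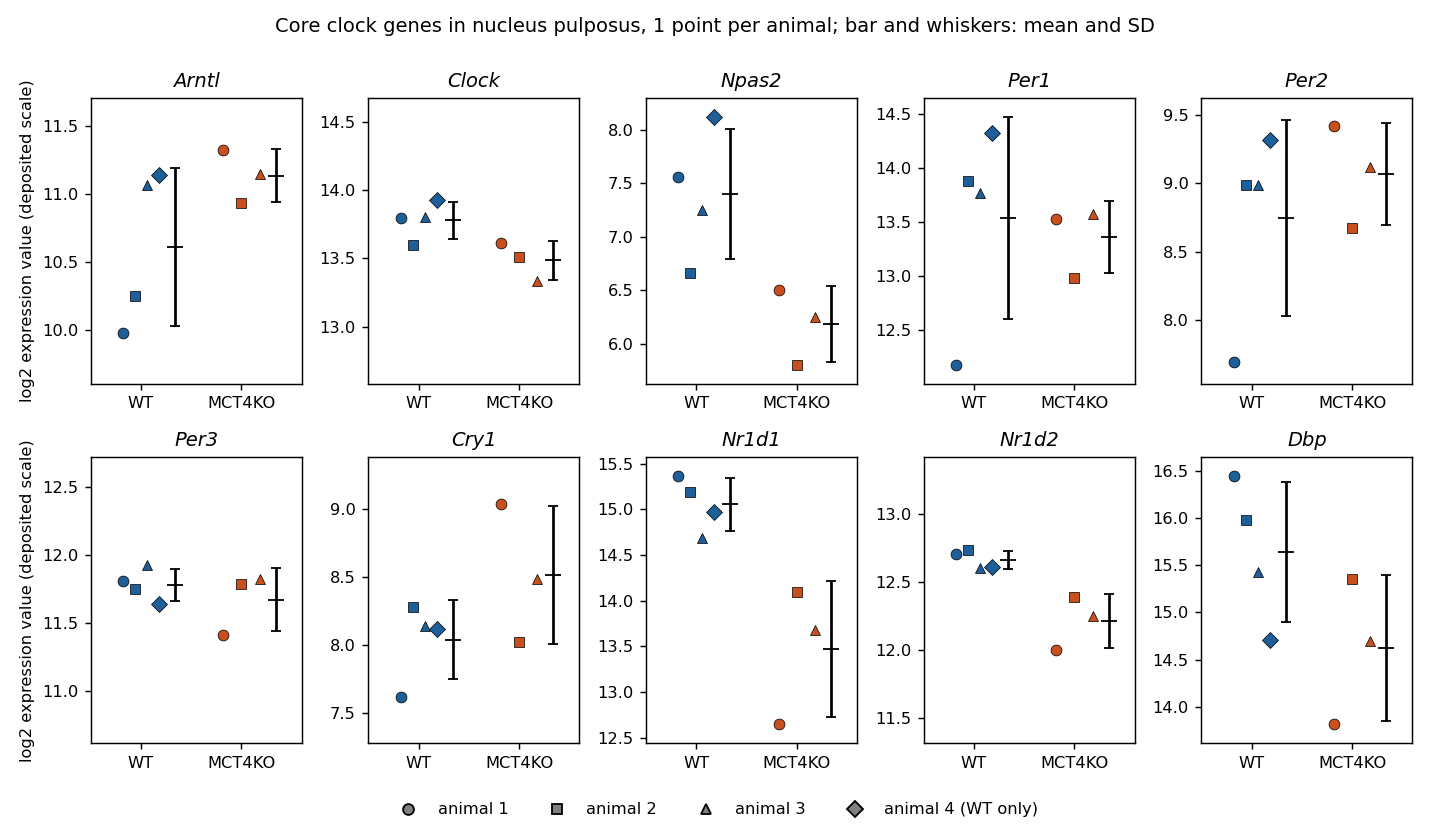
Log2 expression of each of the 10 clock genes (vertical axes, each covering at least 2 log2 units) in every animal, WT in blue and MCT4KO in orange; the horizontal bar and whiskers are the mean and SD. The orange points lie below every blue point for Npas2, Nr1d1 and Nr1d2, and the groups overlap for the other 7 genes.

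Promoter sequences are shown for 4 of the genes in which the exact letters of a clock element were found. They are Nr1d1 and Arntl, whose levels ran in opposite directions, and Cry1 and Per3, which are described with them below. Per1 also held such letters and is not shown. The RefSeq table of GRCm38.p6 held windows from 250 bases before to 50 bases after a gene start for 9 of the 10 genes, 13 windows in all; Per2 is named only. Letters searched on both strands were CACGTG (E-box), CACGTT (a variant E-box), TTATGTAA and TTACGTAA (D-box), AGGTCA (the core of nuclear receptor sites, which lies within the RORE), the RORE consensus and TGACGTCA (cAMP response element). Capitals mark matches to these elements other than AGGTCA alone. Each sequence is written 5′ to 3′ on the strand of its gene.
Nr1d1 (GRCm38.p6 chr11:98775328-98775627, minus strand): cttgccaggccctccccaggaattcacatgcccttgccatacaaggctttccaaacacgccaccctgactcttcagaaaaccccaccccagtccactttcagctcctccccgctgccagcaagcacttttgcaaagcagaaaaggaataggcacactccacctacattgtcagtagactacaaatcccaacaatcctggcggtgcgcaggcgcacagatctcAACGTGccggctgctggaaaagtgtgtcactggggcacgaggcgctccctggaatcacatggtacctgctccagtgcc
Arntl (GRCm38.p6 chr7:113207261-113207560, plus strand): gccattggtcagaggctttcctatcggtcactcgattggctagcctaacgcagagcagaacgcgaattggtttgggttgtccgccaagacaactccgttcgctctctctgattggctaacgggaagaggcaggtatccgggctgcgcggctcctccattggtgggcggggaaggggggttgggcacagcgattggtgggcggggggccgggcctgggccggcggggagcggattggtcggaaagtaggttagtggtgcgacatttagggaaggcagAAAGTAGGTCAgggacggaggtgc
Cry1 (GRCm38.p6 chr10:85185005-85185304, minus strand): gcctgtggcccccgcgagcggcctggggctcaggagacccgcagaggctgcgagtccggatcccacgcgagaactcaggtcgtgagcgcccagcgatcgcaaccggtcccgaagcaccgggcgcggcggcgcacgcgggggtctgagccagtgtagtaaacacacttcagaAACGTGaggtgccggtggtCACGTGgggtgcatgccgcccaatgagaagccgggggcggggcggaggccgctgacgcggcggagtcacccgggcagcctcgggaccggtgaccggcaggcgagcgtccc
Per3 (GRCm38.p6 chr4:151044616-151044915, minus strand): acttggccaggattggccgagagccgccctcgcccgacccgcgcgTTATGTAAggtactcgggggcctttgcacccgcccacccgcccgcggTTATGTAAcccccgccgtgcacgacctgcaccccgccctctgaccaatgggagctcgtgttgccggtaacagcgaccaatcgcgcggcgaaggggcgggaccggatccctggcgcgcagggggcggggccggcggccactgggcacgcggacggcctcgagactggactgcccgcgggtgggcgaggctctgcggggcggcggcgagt

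The Nr1d1 window held the variant E-box, read on the opposite strand, 28 bases before the gene start. The Arntl window held an exact match to the RORE consensus that began 26 bases after this start. The window of its other start held no exact match, and inexact forms of the element were not searched. Cry1 had an E-box beginning 60 bases and a variant E-box 79 bases before the start, and Per3 had D-boxes at 205 and 158 bases. The first of the Per1 windows also held an E-box, 166 bases before the start. Over all 32851 windows in the table, the E-box was found in 7.15%, the variant in 4.68%, the D-box in 1.06%, AGGTCA in 16.3%, the RORE in 0.384% and the cAMP element in 1.79%. Among the 13 windows of the clock genes they were in 2, 2, 1, 4, 1 and 0. A match is a run of letters and not a measured binding site.

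Both REV-ERB genes read lower in every MCT4KO animal than in any WT animal, and Nr1d1 had the lowest change of the 10 clock genes. Nr1d1, which encodes the repressor REV-ERB alpha, read 15.36, 15.19, 14.69 and 14.98 (WT 1 to 4) against 12.65, 14.10 and 13.68 (MCT4KO 1 to 3). Every MCT4KO animal read below every WT animal, by 0.59 at the nearest, and MCT4KO 1 was the lowest. The means were 15.06 ± 0.291 (SD, n = 4) and 13.47 ± 0.745 (SD, n = 3). The change was -1.58 ± 0.309, or 2.99-fold lower, with a 95% interval of -2.27 to -0.89 (limma adjusted p = 0.062), and Nr1d1 stood at place 158 of 19505 genes by p. It passed the threshold when only genes above the negative-control median were tested (adjusted p = 0.048) and with a variance trend in limma (adjusted p = 0.0496). Over all 20 alternative settings the change stayed between -1.89 and -1.17, the smaller value without MCT4KO 1, and adjusted p ran from 0.048 to 0.31.

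Nr1d2, which encodes REV-ERB beta, differed less but with little spread. It read 12.71, 12.73, 12.60 and 12.61 (WT 1 to 4) against 12.00, 12.39 and 12.25 (MCT4KO 1 to 3). The groups were apart by 0.21, and the knockout animals stood in the same order as for Nr1d1, with animal 1 lowest and animal 2 highest. The change was -0.45 ± 0.137 (95% interval -0.76 to -0.14; limma adjusted p = 0.23). Over all 21 pairs that can be formed from the 7 animals, Nr1d1 and Nr1d2 put the pair in the same order in 20. Pairs share animals and are not independent. In RefSeq the span of Nr1d1 overlaps that of Thra, a thyroid hormone receptor gene, by 1075 bases. Thra spanned 11.61 to 11.95 (WT) and 11.78 to 12.03 (MCT4KO) (change 0.09 ± 0.140; adjusted p = 0.82).

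Dbp, the output factor, spanned a wide range in both groups. It read 16.44, 15.98, 15.42 and 14.71 (WT 1 to 4) against 13.82, 15.35 and 14.70 (MCT4KO 1 to 3). The groups overlapped: WT 4 read as low as MCT4KO 3, and MCT4KO 1 lay below all others. The change was -1.01 ± 0.430 (95% interval -1.98 to -0.05; limma adjusted p = 0.37). Its size rested on a few animals, being -0.61 without MCT4KO 1 and -0.44 without WT 1 and WT 2. Sphk2, a sphingosine kinase gene whose span overlaps that of Dbp by 741 bases, had a change of 0.01 ± 0.149 (adjusted p = 0.99).

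Among the activators, Npas2 read lower in every MCT4KO animal and Arntl did not. Npas2 read 7.56, 6.66, 7.25 and 8.12 (WT 1 to 4) against 6.50, 5.80 and 6.25 (MCT4KO 1 to 3). All MCT4KO values lay under all WT values, although WT 2 and MCT4KO 1 were only 0.17 apart. The change was -1.22 ± 0.309 (95% interval -1.91 to -0.53; limma adjusted p = 0.14). Npas2 was the dimmest of the set against background: its mean lay 1.41 above the negative-control median in WT and 0.20 above it in MCT4KO, where MCT4KO 2 read below it, so its size of change is uncertain. Raising every value to at least the control median gave a change of -1.16 (adjusted p = 0.27).

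Arntl, the partner that every activating dimer needs, read 9.98, 10.25, 11.07 and 11.14 (WT 1 to 4) against 11.32, 10.93 and 11.15 (MCT4KO 1 to 3). WT 1 and WT 2 read low, and WT 3 and WT 4 read within the MCT4KO range. The means were 10.61 ± 0.580 (SD, n = 4) and 11.13 ± 0.197 (SD, n = 3), a change of 0.53 ± 0.281 (95% interval -0.10 to 1.15; limma adjusted p = 0.47). Without WT 1 and WT 2 the change was 0.03 (adjusted p = 0.97). Clock, which encodes the usual partner of BMAL1, varied little within a group. It read 13.79, 13.60, 13.81 and 13.93 (WT 1 to 4) against 13.62, 13.51 and 13.33 (MCT4KO 1 to 3), with WT 2 just under MCT4KO 1 and all 3 MCT4KO animals under the WT mean, and the change was -0.30 ± 0.138 (95% interval -0.60 to 0.01; adjusted p = 0.42).

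No repressor differed by more than the spread between animals allows the test to call. Per1, the period gene that also answers to stress hormones and acute stimuli, read 12.18, 13.88, 13.77 and 14.32 (WT 1 to 4) against 13.52, 12.98 and 13.57 (MCT4KO 1 to 3). WT 1 was the lowest animal and WT 4 the highest, so the MCT4KO values lay inside the WT range (change -0.18 ± 0.430; 95% interval -1.14 to 0.78; limma adjusted p = 0.89). Without WT 1 the Per1 change was -0.63, without WT 4 it was 0.08 and without MCT4KO 2 it was 0.01. Per2, its close relative, read 7.69, 8.99, 8.99 and 9.32 (WT 1 to 4) against 9.42, 8.68 and 9.12 (MCT4KO 1 to 3). WT 1 was again the lowest, and the change of 0.33 ± 0.353 (95% interval -0.46 to 1.11; adjusted p = 0.73) became -0.03 without it.

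Per3 and Cry1 complete the repressors. Per3, the least essential period gene for rhythm, read 11.81, 11.75, 11.93 and 11.64 (WT 1 to 4) against 11.41, 11.78 and 11.83 (MCT4KO 1 to 3). The groups overlapped, with MCT4KO 1 the lowest animal (change -0.11 ± 0.149; 95% interval -0.44 to 0.22; limma adjusted p = 0.80). The D-boxes shown above lie in its promoter window, and Dbp ranged from 13.82 to 16.44 over the same animals. A link between Dbp and Per3 was not tested. Cry1, a cryptochrome that blocks the activating dimer, read 7.62, 8.28, 8.14 and 8.12 (WT 1 to 4) against 9.04, 8.02 and 8.48 (MCT4KO 1 to 3). MCT4KO 1 read highest and MCT4KO 2 within the WT range, with a change of 0.47 ± 0.244 (95% interval -0.07 to 1.02; adjusted p = 0.46) and of 0.21 without MCT4KO 1.

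**Figure D2:**
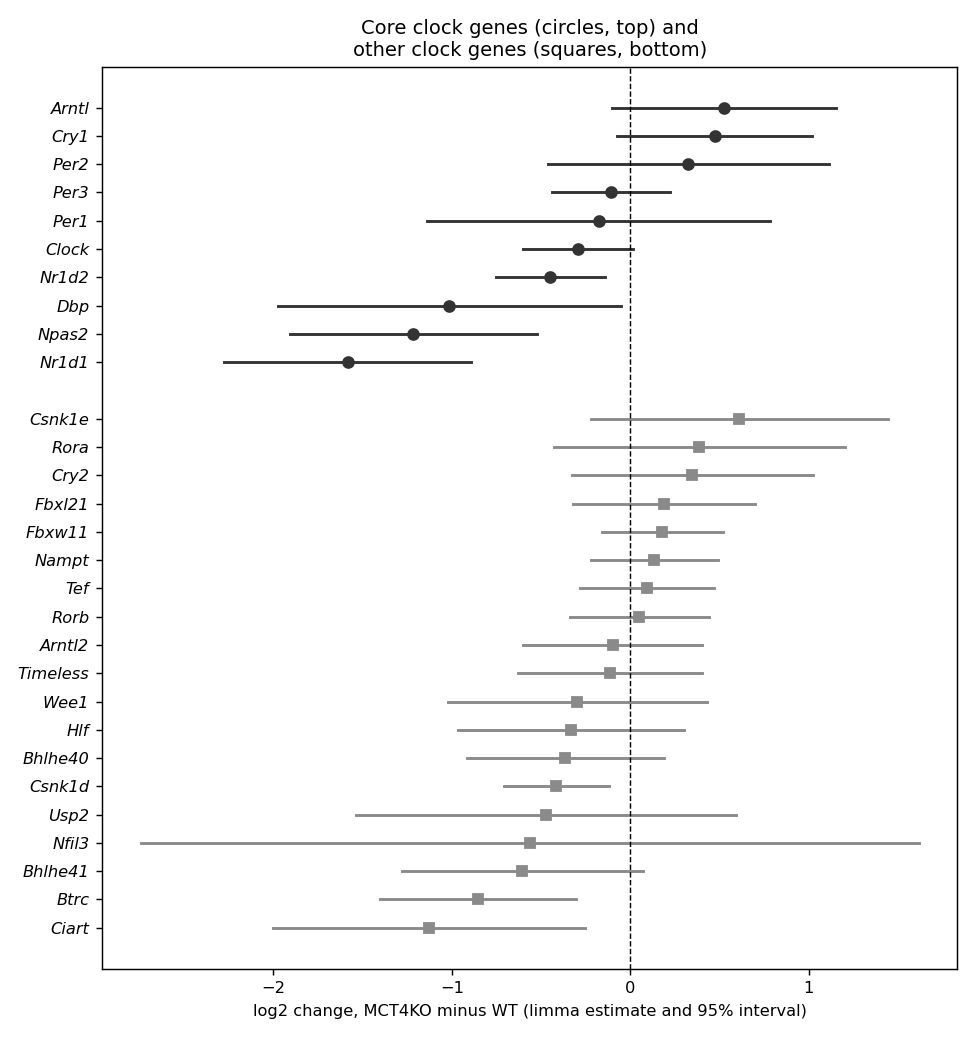
Log2 change, MCT4KO minus WT (horizontal axis), with its limma estimate (points) and 95% interval (lines) for the 10 core clock genes (circles) and 19 other clock genes (squares). Intervals leave out 0 for Nr1d1, Npas2, Dbp and Nr1d2 and for Ciart, Btrc and Csnk1d, before adjustment for the number of genes tested.

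Several clock genes varied more between animals of 1 genotype than most genes did. The within-group SD over both groups was 0.755 for Per1 and 0.754 for Dbp, at percentiles 98.7 and 98.7 of the 9837 genes that read above the negative-control median on all arrays, whose median SD was 0.222. Per2 (SD 0.607), Nr1d1 (0.522), Npas2 (0.522) and Arntl (0.466) lay at percentiles 97.6, 95.9, 95.9 and 93.9, and Cry1 (0.392) at 88.6. Per3, Clock and Nr1d2 lay at percentiles 29.4, 16.6 and 16.1. Clock is known for a transcript that swings little over the day, while Per3 and Nr1d2 are rhythmic in many tissues.

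The order of the animals was compared between genes. Within the groups there are 9 pairs of animals, 6 of WT and 3 of MCT4KO, and Arntl and Dbp put 9 of 9 in opposite order. Of the 9836 other genes above background on all arrays, 2.23% were opposite to Arntl in all 9 pairs and 1.36% ran the same way in all 9. Nr1d1 was opposite to Arntl in 8 of 9 pairs, as 9.42% of those genes were in 8 or more, and Nr1d2 in 7, as 22.3% were in 7 or more. Per2 ran with Arntl in 8 and was tied in the remaining one, WT 2 with WT 3, where 5.11% of genes ran the same way in 8 or more. Clock, Npas2 and Per1 ran with Arntl in 7 pairs each, as 13.5% of genes did in 7 or more, Cry1 in 6 and Per3 in 3. Orders as close as those of Nr1d2, Clock, Npas2 and Per1 were thus common among all genes. Across both groups Arntl and Dbp were opposite in 20 of 21 pairs. These counts describe 7 animals and carry no test.

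**Figure D3:**
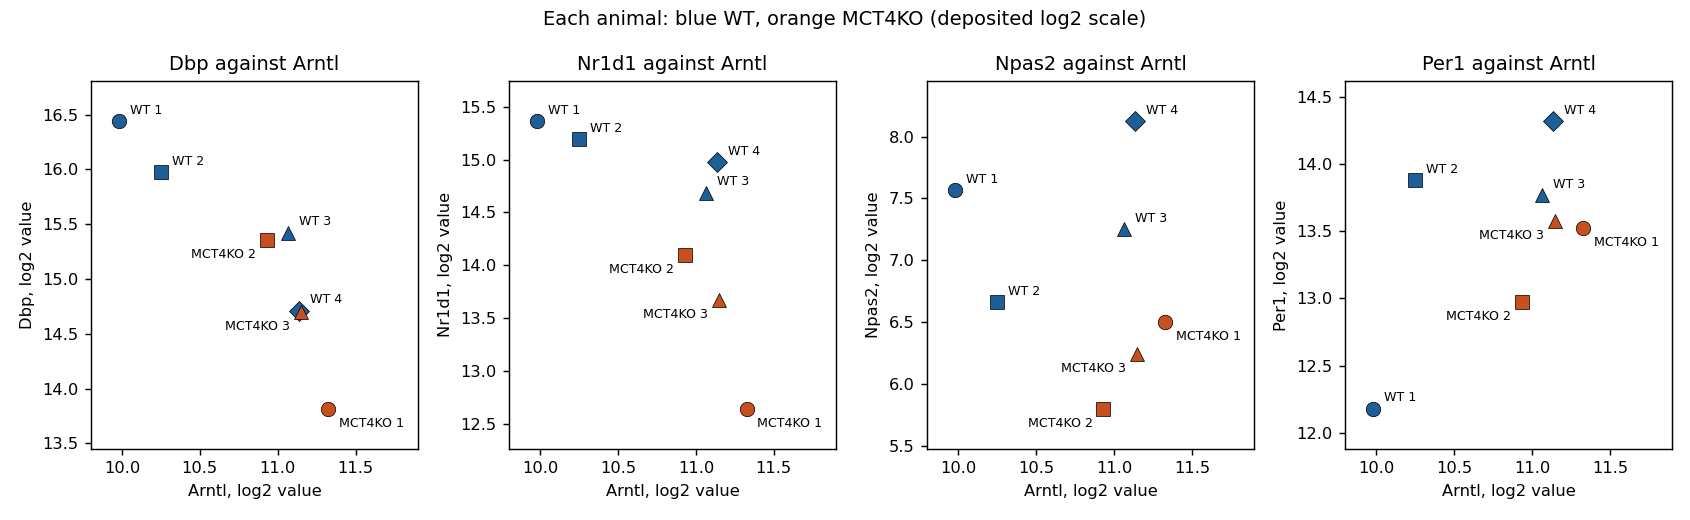
Log2 values of Dbp, Nr1d1, Npas2 and Per1 (vertical axes) against Arntl (horizontal axes) in each animal, WT in blue and MCT4KO in orange. Dbp goes down as Arntl goes up through both groups, whereas at Arntl values near 11 the MCT4KO animals lie under WT 3 and WT 4 for Nr1d1 and Npas2.

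Changes were also computed with the Arntl value of each animal as a covariate in the limma fit, a setting chosen after the order of Arntl and Dbp was seen, so that it restates that order for Dbp. The change of Dbp was then -0.28 ± 0.302 (adjusted p = 0.81). Under the same setting Nr1d1 had -1.23 ± 0.321 (adjusted p = 0.24) and Npas2 -1.51 ± 0.341 (adjusted p = 0.17). The others had -0.84 (Per1), -0.37 (Clock), -0.36 (Nr1d2), -0.22 (Per2), -0.07 (Per3) and 0.25 (Cry1), none was called, and differences between genes were not tested. Leaving out WT 1 and WT 2, the low-Arntl animals, gave -0.44 for Dbp, -1.36 for Nr1d1 and -1.50 for Npas2, with adjusted p of 0.77, 0.31 and 0.17. WT 1 and WT 2 also had the highest neutrophil and myeloid marrow markers: the mean of the 12 markers was 7.45 and 9.52 there, compared with 5.82 (WT 3), 6.17 (WT 4) and 5.08 to 5.68 (MCT4KO). All 12 markers had changes below 0, as 9174 of all 19505 genes had, with a median of -1.35. Of the 12, 0 were called, beside 0.59% of all genes. The groups did not overlap for 4, all lower in MCT4KO, as for 6.37% of all genes. In all MCT4KO animals but not in all WT animals 7 read at or below the negative-control median, as 358 of all 19505 genes did. S100a8, a calprotectin subunit with the smallest p of the 12 markers, read 10.41, 13.04, 7.71 and 7.86 (WT 1 to 4) against 5.56, 4.31 and 5.57 (MCT4KO 1 to 3), the latter at background (limma adjusted p = 0.12). The part of these cells in the clock gene values was not tested beyond leaving out WT 1 and WT 2. With the Uty value as a covariate, also chosen after the data were seen, Nr1d1 had -1.60 ± 0.304 (adjusted p = 0.065) and Npas2 -1.22 ± 0.321 (adjusted p = 0.16).

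The rest of the pathway was read from 19 other clock genes. None was called by limma at an adjusted p under 0.05, beside 0.59% of all genes. An unadjusted p under 0.05 was found for 3, all with lower means in MCT4KO. The groups did not overlap for 2, both lower in MCT4KO. Over all genes 6.9% had an unadjusted p under 0.05 with a lower mean, and 6.37% had groups that did not overlap in that direction. In either direction the shares were 12.7% and 12%. The counts were not tested against these shares. The median change was -0.11, with 11 below 0 and 8 above. Among factors that restrain the activating dimer, Ciart, a repressor that oscillates strongly, read 9.97, 11.72, 10.83 and 11.11 (WT 1 to 4) against 9.13, 9.88 and 10.33 (MCT4KO 1 to 3). WT 1 lay among the MCT4KO values and the other WT animals lay above them (change -1.13 ± 0.390; adjusted p = 0.29). Bhlhe41, which competes for E-boxes, had a change of -0.61 ± 0.301 (adjusted p = 0.44).

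Genes that act on the PER proteins included the closest neighbour of the deleted gene. Btrc encodes a ubiquitin ligase subunit that marks PER for breakdown, and it read 9.27, 8.99, 9.03 and 9.26 (WT 1 to 4) against 7.65, 8.83 and 8.38 (MCT4KO 1 to 3). The knockout animals were all lower, again with animal 1 lowest (change -0.85 ± 0.245; limma adjusted p = 0.19). Csnk1d encodes casein kinase 1 delta, which phosphorylates PER and sets the pace of the clock. It read 14.66, 14.66, 14.91 and 14.76 (WT 1 to 4) against 14.38, 14.21 and 14.41 (MCT4KO 1 to 3), with no overlap (change -0.41 ± 0.132; adjusted p = 0.25). The RefSeq span of Csnk1d overlaps that of Slc16a3 on chromosome 11 by 1292 bases, so deletion at the locus and a response of the gene cannot be told apart. Nr1d1 and Per1 also lie on chromosome 11.

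WT 1 stood apart in genes that respond to acute stimuli. The mean of 10 immediate-early genes, which are switched on within minutes of a stimulus or of handling, was 11.10 in WT 1, while the other WT animals had 13.41 to 14.22. In the knockouts it was 12.03 for animal 1, 13.80 for animal 2 and 13.78 for animal 3, so that each group held a low animal. None of these 10 genes was called, beside 0.59% of all genes. None had an unadjusted limma p under 0.05, beside 12.7% of all genes, and Egr2 had the smallest (change -1.08 ± 0.601, adjusted p = 0.48). Nfil3, a repressor that competes with DBP for D-boxes and was picked after its values were seen, read 6.56 in WT 1 against 10.24 to 11.46 in the other WT animals and 8.51 to 9.83 in MCT4KO. WT 1 was the WT animal with the lowest Per1 and Per2 as well, and the part of this response in the Per values was not tested. WT 1 was also the only WT animal without signal from the Y chromosome. With the Uty value as a covariate the changes were -0.14 for Per1 and 0.36 for Per2 (limma adjusted p = 0.90 and 0.65). The part of this trait in the immediate-early values was not tested.

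Genes induced by glucocorticoids, the hormones that reset peripheral clocks and raise Per1, gave no call. Of 10 measured, Per1 included, 0 passed the limma test, beside 0.59% of all genes. At an unadjusted p under 0.05, 1 was higher and 1 lower, where 5.76% of all genes were higher and 6.9% lower. The median change was 0.21. Tsc22d3, which encodes the glucocorticoid-induced leucine zipper, read 13.25, 13.08, 14.26 and 14.59 (WT 1 to 4) against 15.15, 14.32 and 15.33 (MCT4KO 1 to 3). As for Arntl, WT 1 and WT 2 were the low animals and WT 4 lay within the MCT4KO range (change 1.14 ± 0.386; adjusted p = 0.28).

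**Figure D4:**
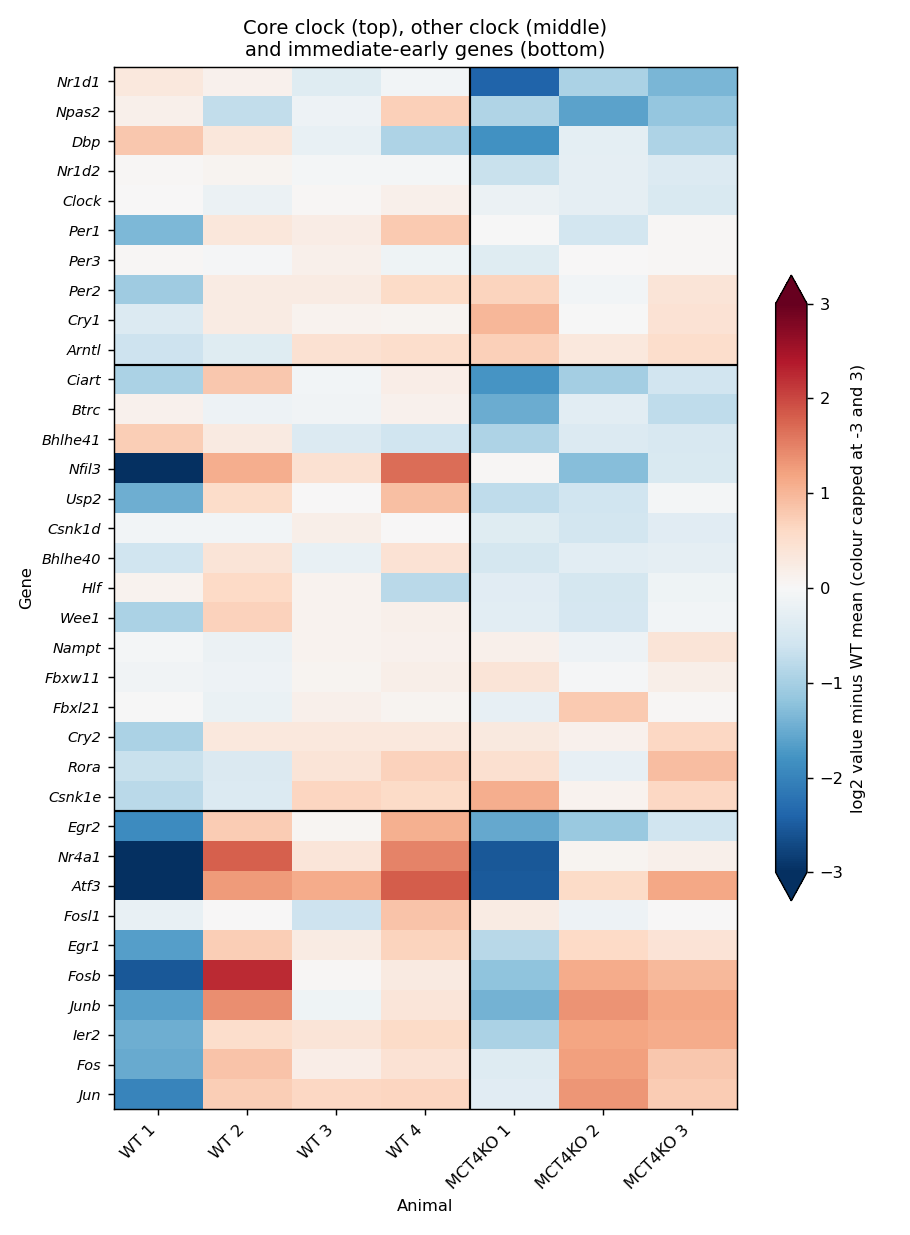
Log2 value minus the WT mean (colour, capped at -3 and 3) of the 10 core clock genes, the 15 other clock genes above background on all arrays and 10 immediate-early genes (rows) in each animal (columns). Among the core genes Nr1d1, Npas2, Nr1d2, Dbp and, faintly, Clock are blue in all 3 MCT4KO columns. The WT 1 and MCT4KO 1 columns are blue for most immediate-early genes.

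For 4 clock genes, genes outside the set with the nearest profile over the 7 animals were listed. Likeness was the root mean square difference between centred log2 profiles, over 9828 genes above background on all arrays. Nearest to Nr1d1, whose own profile departs from its mean by 0.899, were Mpzl2 (difference 0.18), Nr2f2 (0.23) and As3mt (0.26), the last of which was called (change -1.34; limma adjusted p = 0.041). Nearest to Arntl (own departure 0.472) were Myadm (0.12), Kctd9 (0.13) and Fstl3 (0.14). Nearest to Dbp (0.811) were Tmem143 (0.23), Slc35b4 (0.24) and Csrnp3 (0.25), and to Npas2 (0.746) Npnt (0.27), Fzd4 (0.28) and Slc6a12 (0.29). These profiles include the genotype difference.

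Over the lists of markers of other cell types that dissection can bring along, 1 gene was called, on the end plate list of 7. Of all 19505 genes 0.59% were called. Snorc, a cartilage proteoglycan gene on the end plate list, was lower (change -1.53 ± 0.227; limma adjusted p = 0.026). Col2a1, the main collagen of cartilage and on the same list, went the other way without being called. It read 8.29, 8.10, 7.58 and 8.30 (WT 1 to 4) against 10.08, 9.22 and 8.85 (MCT4KO 1 to 3), with no overlap (change 1.32 ± 0.286; adjusted p = 0.088). Of the 7 genes of that list 5 had changes above 0 and 2 below, so its median hides opposite members. Only 3 of the 7 read above the negative-control median on all arrays, and 3 read at or below it on all. In that list Col10a1, chosen after its values were seen, read 12.11 in MCT4KO 1 and 7.18 and 9.02 in the other MCT4KO animals, and MCT4KO 1 was also the animal with the lowest Nr1d1, Nr1d2 and Dbp; its part in the result was not tested. The median changes were 0.11 for 7 end plate, 0.11 for 6 annulus and tendon, 0.22 for 8 muscle and 0.07 for 4 neural and glial markers. Most other lists lay near background: of 5 adipocyte markers 0 read above the negative-control median on all arrays, and 5 of 6 endothelial, 5 of 6 osteoblast and 3 of 5 macrophage markers read at or below it on all arrays. Of 8 muscle markers 2 read above it on all arrays, as did 2 of 6 annulus and tendon, 2 of 4 neural and glial and 1 of 2 erythroid markers. Medians over such lists do not show whether those cells differed between the groups. The mean over the end plate list spanned 6.48 to 6.80 (WT) and 6.55 to 7.52 (MCT4KO). The genes with the smallest p in the other lists were Noto, Alas2, Ckm, Lep, Emcn, Mrc1, Thbs4, Ibsp and Mbp, with adjusted p from 0.14 (Ibsp) to 0.67 (Mrc1).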

How the data were processed

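Nucleus pulposus RNA (100 ng per animal, biotin-labelled) was measured on Affymetrix mouse whole-transcript arrays, 1 per animal. The authors deposited log2 expression values; the submitters' processing notes name Affymetrix Expression Console 1.4.1, and no source used here gives the normalization. The log2 scale is inferred from the values, whose highest, 19.41, exceeds a scanner's log2 range, so folds are on the deposited scale.

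Of 28846 features, 22206 were transcript clusters and 19572 carried 1 gene symbol in the platform annotation, 0 several and 2634 none; the feature with the highest mean stood for each of 19505 genes. The 5222 negative-control features had array medians of 5.91 to 6.08. The test was limma 3.58.1 in R 4.3.3 (lmFit and eBayes; 5 residual and 4.66 prior degrees of freedom), two-sided over every gene, with Benjamini-Hochberg adjustment over all genes and a threshold of 0.05. The fit was tested on simulated data. The number of arrays limits the precision (median SE 0.167).

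Named besides the 10 clock genes were Slc16a3, overlapping neighbours, the 4 other clock genes with the smallest p, the 3 nearest profiles of 4 clock genes, and the gene with the smallest p in each other list; Nfil3, Cry2, Uty, Col2a1 and Col10a1 were picked after their values were seen. The genes and lists were chosen with earlier results of these data known. Alternatives were other normalizations, filters, variance models and left-out animals. Same-numbered WT and MCT4KO animals did not deviate together (correlations -0.18, 0.05 and 0.04 across genes), and the main fit used no pairing. These correlations cannot show whether same-numbered animals shared a litter or batch.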

Additional observations from a re-analysis of the deposited data

Results flagged for a closer look

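Of the 10 clock genes, the 19 other clock genes, Slc16a3, Thra and Sphk2, 1 had a WT animal far from the others of its group by Dixon's criterion. Cry2, the second cryptochrome, read 13.55 in WT 1, against 14.80 at the nearest in the other 3 WT animals, a gap of 0.992 of the group's range. Chance marks about 1 in 20 groups. Cry2 read 14.63 to 15.10 in MCT4KO, and its change was 0.35 ± 0.302 (limma adjusted p = 0.66).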

How the results depend on the processing

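Over 21 alternatives the count of clock genes called by limma was 0 in 19 and 1 in the other 2, Nr1d1 each time: genes above the median negative control, and eBayes with a trend. The 7 fits that leave out 1 animal gave 0. The count of other clock genes called was 0 in all 20 alternatives, the count of clock genes at an unadjusted p under 0.05 ran from 3 to 5, and the median change from -0.39 to -0.19. Signs of Nr1d1, Npas2, Nr1d2, Dbp, Clock, Arntl and Cry1 held in every alternative run for them. The signs of the period genes did not. Per1 ranged from -0.63 to 0.083 when 1 animal was left out, and was 0.083 with the replicate block. Per2 ranged from -0.027 to 0.52 when 1 animal was left out, and was -0.082 without WT 1 and WT 2 and -0.22 with Arntl as covariate. Per3 ranged from -0.18 to 0.024 when 1 animal was left out. With the replicate block on WT 1 to 3 and MCT4KO 1 to 3, 0 clock genes were called, Nr1d1 had -1.61 (adjusted p = 0.16), and 6 genes in all were called, against 25 in the same 6 animals without it. The count over all genes, 115, ran from 15 to 64 without 1 animal and from 4 (Holm adjustment) to 164 over all alternatives. The cause of these shifts was not tested. Dim signal limits Npas2 in MCT4KO, and the number of animals limits every interval.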
